A study of Mus musculus with 6 samples.

Results

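The aryl hydrocarbon receptor (AHR) battery described here comprised 9 mouse genes: the receptor gene Ahr, its partner Arnt, the repressor genes Ahrr and Tiparp, the cytochrome P450 genes Cyp1a1, Cyp1a2 and Cyp1b1, the aldehyde dehydrogenase gene Aldh3a1 and the P450 gene Cyp2e1. Members were all non-control array probes whose transcript accession belonged to one of these genes, which gave 15 of the 55681 probes and 9 of the 21368 genes with a symbol. RNA came from the tongues of 6 C57Bl6 mice. All 6 animals, controls included, carried a transgene (iDek) built to raise the chromatin protein gene Dek when the antibiotic doxycycline (DOX) is given. There were 3 mice that received no DOX and 3 mice given DOX for 2 weeks. The genotype label calls the induction ubiquitous and squamous cell-specific and names no promoter, and the labels used here give no age. Since no animal here received DOX without carrying the transgene, DOX and Dek induction cannot be told apart. The series title mentions a carcinogen, whereas the sample labels used here name none.

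AHR is a transcription factor of the bHLH-PAS family that rests in the cytosol with HSP90 and co-chaperones until a ligand such as a polycyclic aromatic hydrocarbon, dioxin or tryptophan metabolite binds it. It then enters the nucleus, pairs with ARNT and binds xenobiotic response elements with the core letters GCGTG. The CYP1 enzymes it induces oxidise aromatic compounds, among them tobacco carcinogens that reach the oral epithelium, and AHRR and TIPARP damp the response.

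The promoters of the members with the larger differences are shown because they can be read for that core. RefSeq promoter windows of build GRCm38.p6, which run from 250 bases before to 50 bases after the annotated start, held entries for 7 of the 9 genes, and Ahr and Aldh3a1 had none. Each line below is written 5′ to 3′ on the strand of the gene, and capitals mark GCGTG or its reverse complement CACGC.
Cyp1a1 (chr9:57697363-57697662, plus strand): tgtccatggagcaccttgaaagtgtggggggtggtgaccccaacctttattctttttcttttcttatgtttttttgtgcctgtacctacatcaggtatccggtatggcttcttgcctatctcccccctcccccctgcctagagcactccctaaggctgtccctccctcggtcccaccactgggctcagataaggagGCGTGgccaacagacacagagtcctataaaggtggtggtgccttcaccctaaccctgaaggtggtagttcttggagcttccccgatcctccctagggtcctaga
Cyp1b1 (chr17:79715012-79715311, minus strand): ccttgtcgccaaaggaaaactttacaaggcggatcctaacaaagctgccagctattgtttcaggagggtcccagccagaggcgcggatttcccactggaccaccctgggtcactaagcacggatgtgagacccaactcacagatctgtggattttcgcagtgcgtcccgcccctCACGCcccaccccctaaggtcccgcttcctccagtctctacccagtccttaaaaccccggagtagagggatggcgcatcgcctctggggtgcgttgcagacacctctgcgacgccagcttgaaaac
Ahrr (chr13:74292282-74292581, minus strand): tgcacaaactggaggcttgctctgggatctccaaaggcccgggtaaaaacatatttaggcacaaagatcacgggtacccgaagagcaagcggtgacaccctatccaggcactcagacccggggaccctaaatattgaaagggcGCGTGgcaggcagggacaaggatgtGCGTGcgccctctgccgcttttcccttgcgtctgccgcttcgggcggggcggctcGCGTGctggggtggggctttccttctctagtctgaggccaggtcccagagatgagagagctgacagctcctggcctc
Tiparp (chr3:65528197-65528496, plus strand): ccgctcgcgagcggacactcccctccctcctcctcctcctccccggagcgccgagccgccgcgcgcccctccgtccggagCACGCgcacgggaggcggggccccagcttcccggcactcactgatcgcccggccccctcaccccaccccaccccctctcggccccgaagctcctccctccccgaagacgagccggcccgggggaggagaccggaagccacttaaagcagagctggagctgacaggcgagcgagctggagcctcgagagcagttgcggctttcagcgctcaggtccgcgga
Cyp2e1 (chr7:140763569-140763868, plus strand): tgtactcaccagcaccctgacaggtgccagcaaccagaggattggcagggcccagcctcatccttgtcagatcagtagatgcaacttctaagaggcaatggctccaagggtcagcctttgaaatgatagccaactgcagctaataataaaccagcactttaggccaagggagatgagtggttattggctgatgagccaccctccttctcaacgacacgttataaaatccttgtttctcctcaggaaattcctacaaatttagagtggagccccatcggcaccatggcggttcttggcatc

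The core GCGTG, searched on both strands, was present in 5 of the 7 windows and in 32.39% of the 32851 promoter windows of the same length. Ahrr held 3 copies, which start 107, 82 and 27 bases before the annotated start, and 3.91% of all windows held 3 or more. Cyp1a1 held 1 copy starting 54 bases before the start, Cyp1b1 and Tiparp 1 copy each on the opposite strand, and Arnt 1 copy. The Cyp1a2 and Cyp2e1 windows held none of these letters. The longer form TNGCGTG, which contains the core, was found in the Ahrr window alone among the 7 and in 5.07% of all windows. These matches describe letters in a short window and not binding.

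Values below are log2 processed signals minus the 75th percentile of the same array, so 0 is the level of that percentile, and ± after a group mean is the SD of 3 arrays. A probe counted as detected on an array where the scanner software marked it well above background. Between 56.0% and 58.3% of probes were detected per array and 0 non-control spots were saturated. The markers listed for keratinocytes (10 of 10) and skeletal muscle (8 of 8) were detected on all 6 arrays. Dek, read by 1 probe, was at 2.30, 2.10 and 2.20 without DOX and at 2.41, 2.41 and 2.27 with DOX, with groups that overlap, and its difference did not pass (limma, log2 0.17 ± 0.11 SE, adjusted p = 0.456). The stretches of Dek in the probe and in the transgene are unknown here, so this does not check the labels.

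Cyp1a1, Cyp1b1 and the repressor gene Ahrr were higher on all 3 DOX arrays, the receptor gene Ahr had overlapping groups, and Cyp1a2 was not detected. The log2 difference, DOX minus no DOX, was 4.68 ± 0.81 (SE, n = 3 and 3) for Cyp1a1, 1.56 ± 0.16 for Cyp1b1 and 1.51 ± 0.17 for Ahrr. Cyp2e1 was higher by 0.86 ± 0.23 and Tiparp by 0.54 ± 0.18, whereas Ahr was at -0.16 ± 0.12. The genes were selected on the normalised signals of this same comparison, so these differences are a description and carry no test of their own.

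**Figure D1:**
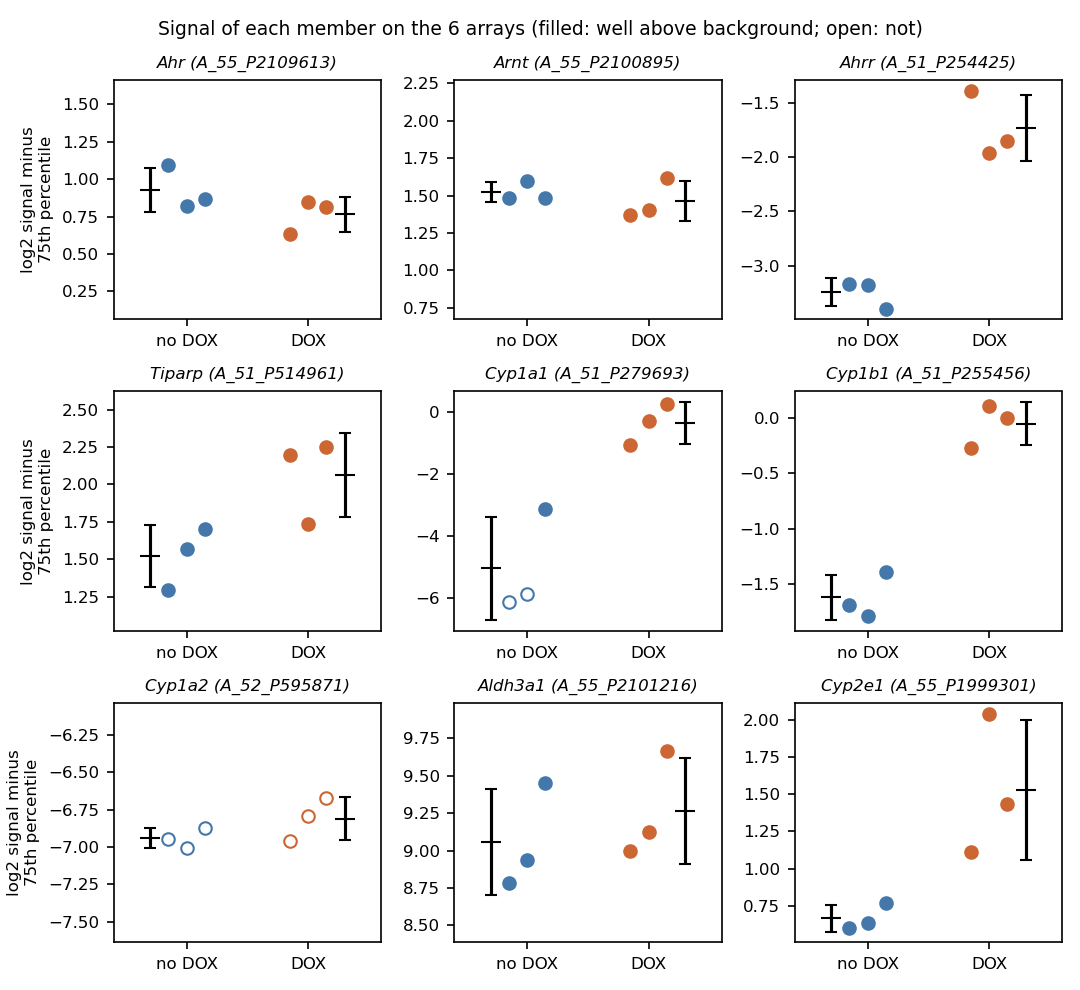
Normalised log2 signal (log2 processed signal minus the array's 75th percentile) of the brightest probe of each of the 9 members on 3 arrays without DOX (blue) and 3 with DOX (orange), each panel with its own axis; filled points were well above background, open points were not, and black bars are the mean and SD of 3 arrays. Cyp1a1, Cyp1b1, Ahrr, Cyp2e1 and Tiparp had 3 DOX values above all 3 values without DOX, Ahr, Arnt and Aldh3a1 overlapped, and Cyp1a2 stayed below background.

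Ahr encodes the receptor itself. Its brighter probe (A_55_P2109613) read 1.09, 0.82 and 0.87 in no DOX replicates 1 to 3 and 0.63, 0.85 and 0.81 in DOX replicates 1 to 3. The groups overlap, and the lowest value was that of DOX replicate 1. The fold was 0.895 (95% interval 0.730 to 1.1), which leaves room for a small difference in either direction. A dimmer Ahr probe (A_65_P06603), detected on all 6 arrays, gave a difference of -0.04 ± 0.12 (SE), also with overlapping groups.

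Arnt encodes the partner that AHR needs to bind DNA and that other bHLH-PAS factors share. Its brighter probe (A_55_P2100895) read 1.48, 1.60 and 1.49 without DOX and 1.37, 1.40 and 1.62 with DOX, with overlapping groups and a difference of -0.06 ± 0.11 (SE). The other Arnt probe (A_55_P2100899), matched to the same accession, read -0.95, -0.71 and -0.80 without DOX and -0.30, -0.65 and -0.26 with DOX. Its 3 DOX values lay above the others by a margin of 0.06, and its difference was 0.42 ± 0.14 (SE). The 2 probes of Arnt thus differ in sign, and which exons they read is unknown here.

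Ahrr encodes a bHLH-PAS protein that competes with AHR for ARNT and for the response element, and it is itself a target of AHR. Its detected probe (A_51_P254425) read -3.16, -3.18 and -3.39 without DOX and -1.39, -1.96 and -1.86 with DOX. All 3 DOX values lay above the others, by 1.20 (log2) between the nearest pair, and DOX replicate 1 was highest. The group means were -3.24 ± 0.13 and -1.74 ± 0.30 (SD, n = 3), a fold of 2.84 with a 95% interval of 2.13 to 3.79. A further Ahrr probe (A_55_P2128388) was not detected on any array, so Ahrr rests on 1 probe. With normexp, an alternative background correction that compresses dim signals, the Ahrr fold was 1.66.

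Tiparp encodes a mono-ADP-ribosyltransferase that modifies AHR and lowers its activity. Its brighter probe (A_51_P514961) read 1.30, 1.57 and 1.70 without DOX and 2.20, 1.74 and 2.25 with DOX. The groups were apart by 0.04 only, since DOX replicate 2 lay next to no DOX replicate 3. The other Tiparp probe (A_55_P1985890) read 1.13, 1.33 and 1.38 without DOX and 2.01, 1.14 and 1.91 with DOX. On that probe DOX replicate 2 fell among the controls, while DOX replicates 1 and 3 were above them. The differences were 0.54 ± 0.18 and 0.41 ± 0.24 (SE), folds of 1.45 and 1.33.

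Cyp1a1 encodes the P450 most often used as a readout of AHR activity. Its processed signal was 3.79, 4.22 and 28.2 in no DOX replicates 1 to 3 and 119.1, 207.7 and 312.1 in DOX replicates 1 to 3. The first 2 of these were not well above background, where the lowest detected signal on an array was 8.35 to 11.0, and no DOX replicate 3 was the single control in which the gene was detected. On the normalised log2 scale the values were -6.12, -5.86 and -3.13 without DOX and -1.06, -0.28 and 0.27 with DOX. All 3 DOX values lay above the controls, by 2.07 between DOX replicate 1 and no DOX replicate 3. The SD was 1.66 without DOX and 0.67 with DOX, against a median SD over all named genes of 0.16 and 0.18.

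The fitted fold of Cyp1a1 was 25.6 with a 95% interval from 6.68 to 98.3. The gene entered the fit through the DOX arrays, since it was detected in 1 of 3 controls. The size of the fold depends on how the dim control signals are treated. With signals under the lowest detected level raised to that level the fold was 15.1, and with normexp it was 3.86. Without no DOX replicate 3 it was 49.7. In bulk tissue a higher level can come from more cells of a type or from more RNA per cell, and these cannot be told apart.

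Cyp1b1 encodes an extrahepatic P450 that activates aromatic carcinogens and is another AHR target. Its probe (A_51_P255456) was detected on all 6 arrays and read -1.68, -1.78 and -1.39 without DOX and -0.27, 0.11 and -0.01 with DOX. The groups were apart by 1.12, with DOX replicate 1 the lowest of its group and no DOX replicate 3 the highest of its own. The group means were -1.62 ± 0.20 and -0.06 ± 0.19 (SD, n = 3), a fold of 2.95 with a 95% interval of 2.28 to 3.82. With normexp the fold was 2.03. Cyp1a2, which encodes the mainly hepatic CYP1 enzyme, was not detected on any array, with processed signals from 1.91 to 2.54, so no difference is given.

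Aldh3a1 encodes an aldehyde dehydrogenase of epithelia that belongs to the AHR battery in rodents. Its probe A_55_P2101216 read 8.78, 8.94 and 9.46 without DOX and 9.0, 9.13 and 9.67 with DOX. Replicate 3 was the highest of each group, the groups overlap, and the difference was 0.21 ± 0.24 (SE). The other probe (A_55_P2065562) gave 0.16 ± 0.23. The interval of the fold at the first probe was 0.771 to 1.73.

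Cyp2e1 encodes a P450 that oxidises ethanol and nitrosamines and is not a classical AHR target. Its brighter probe (A_55_P1999301) read 0.60, 0.63 and 0.77 without DOX and 1.11, 2.04 and 1.43 with DOX. The other probe (A_55_P1966690) read -1.31, -1.21 and -0.95 without DOX and -0.53, 0.36 and -0.39 with DOX. On both probes all DOX values were above the controls and DOX replicate 2 was highest. The folds were 1.82 (95% interval 1.23 to 2.68) and 1.96 (1.30 to 2.96). Without DOX replicate 2 the log2 difference at the brighter probe was 0.61.

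**Figure D2:**
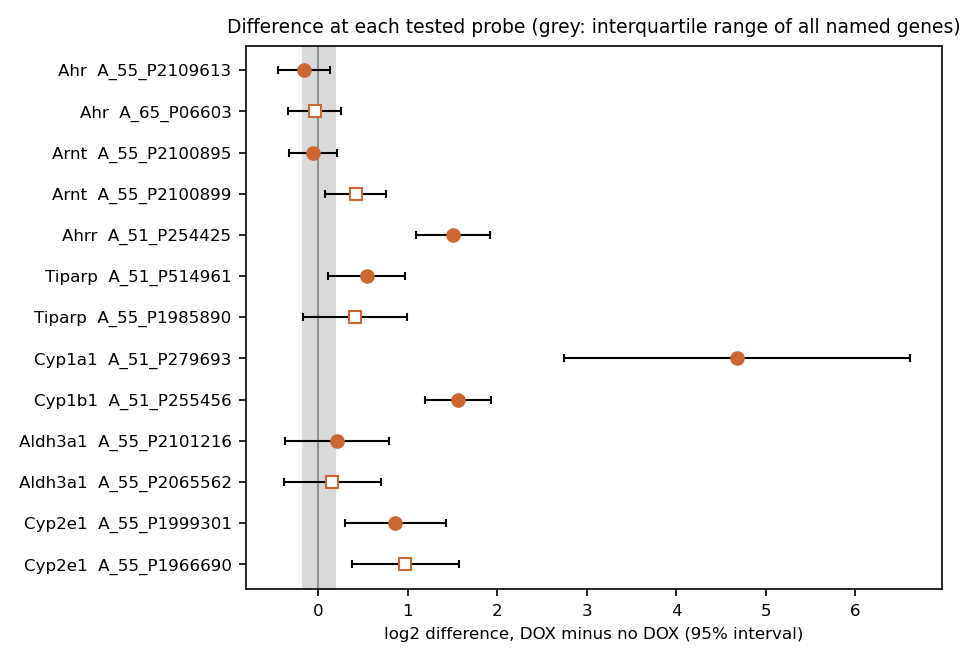
Log2 difference (DOX minus no DOX) with its 95% interval at each of the 13 tested member probes; filled circles are the brightest probe of a gene, open squares a further probe, and the grey band is the interquartile range of all named genes tested (-0.18 to 0.19). Cyp1a1 lies farthest to the right with the widest interval, Cyp1b1 and Ahrr lie near 1.5, and the 2 Arnt probes lie on opposite sides of 0.

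The arrays that were high differed among the members. Cyp1a1 was highest in DOX replicate 3, Cyp1b1 and Cyp2e1 in DOX replicate 2, Ahrr in DOX replicate 1, and Tiparp in DOX replicates 1 and 3. Among controls, no DOX replicate 3 was the highest for Cyp1a1, Cyp1b1, Cyp2e1, Tiparp and Aldh3a1 and the lowest for Ahrr. The 6 arrays shared 1 slide and 1 scan. Row 1 of the slide carried the controls and DOX replicate 1, and row 2 carried the other DOX arrays. Within row 1, DOX replicate 1 exceeded the mean of the controls by 3.98 for Cyp1a1, 1.35 for Cyp1b1, 1.85 for Ahrr and 0.45 for Cyp2e1.

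Of the 9 members, 8 passed the filter on dim probes and were part of the array-wide limma fit, and Cyp1a2 did not. At an adjusted p under 0.05 over all probes (Benjamini-Hochberg), 2 of the 8 were called higher (Cyp1b1 and Ahrr) and 0 lower, beside 0.368% of the 15211 named genes called higher, 0.158% called lower and 0.526% either way. At an unadjusted p under 0.05 there were 5 of the 8, where 20.1% of all named genes tested lay under it. The groups did not overlap for 5 of the 8, all with DOX higher, where 15.3% of named genes had DOX values wholly above, 12.4% wholly below and 27.6% either. With normexp 3 of the 8 were called higher, beside 0.92% of named genes called higher, 0.414% lower and 1.33% either way. With no filter on dim probes Cyp1a2 was also in the fit, and 0 of the 9 were called, beside 0% of named genes called higher and 0.00468% lower or either way. Since the genes were selected with this comparison in view, nothing is read from these shares.

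Neither Cyp1b1 nor Ahrr passed when any 1 of the 6 arrays was left out, although their fold stayed between 2.52 and 3.19 in those fits. Cyp1a1, not called as reported (adjusted p = 0.0777), was called with normexp, with array weights and with signals raised to the lowest detected level. It was also called at a threshold of 0.10 and without no DOX replicate 3. That last fit left only controls in which Cyp1a1 was not detected.

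**Figure D3:**
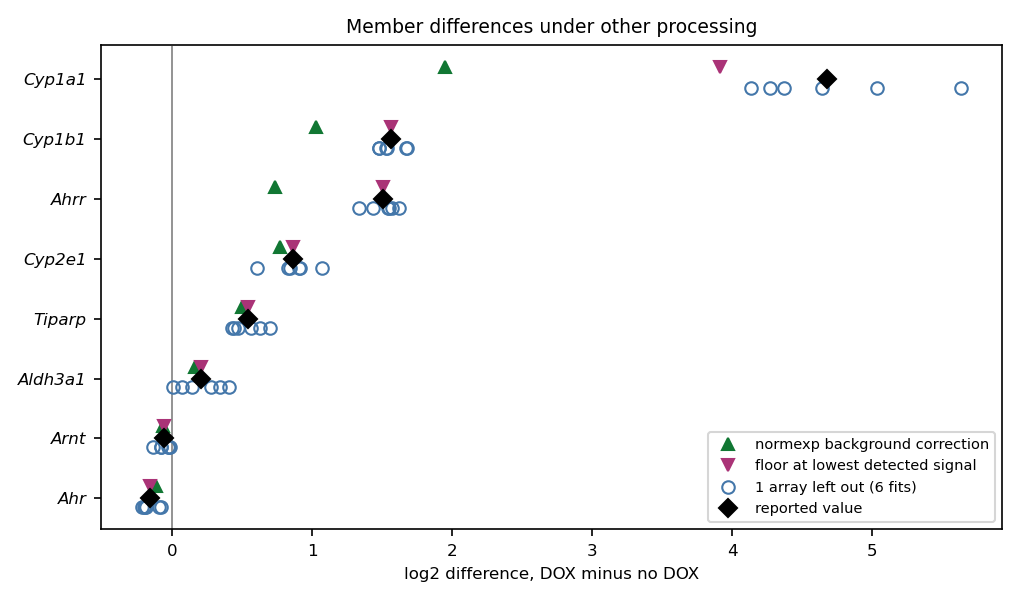
Log2 difference (DOX minus no DOX) of the 8 tested members as reported (black diamonds), with normexp background correction (green triangles), with dim signals raised to the lowest detected signal (purple triangles) and with each of the 6 arrays left out (open circles). Cyp1a1 ranges from 1.95 to 5.63, while Cyp1b1 (1.02 to 1.68) and Ahrr (0.73 to 1.62) stay above 0.

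The rest of the pathway was described from 10 lists, without the members. Over these lists 139 further genes were tested, of which 4 rose and 3 fell (limma, adjusted p under 0.05), and 5 of these 7 were clock genes. At that threshold 0.368% of all named genes were called higher, 0.158% lower and 0.526% either way. The called counts of each list below stand beside these shares. The median log2 difference of all named genes was 0.01, and 20.1% of them (3059 of 15211) had an unadjusted p under 0.05, the share beside which the unadjusted counts of the lists stand.

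Among 10 further genes of the receptor complex and its coactivators, 1 rose, 0 fell and 9 did not pass, with a median of -0.04. An unadjusted p under 0.05 was found for 4 of the 10, beside 20.1% of all named genes. Hsp90aa1, the inducible cytosolic HSP90 that holds AHR in its ligand-binding state, rose from 3.80, 3.82 and 4.01 to 5.41, 4.93 and 5.02 (log2 1.24 ± 0.15 SE, adjusted p = 0.0406). Hsp90ab1, the other HSP90 gene of this list and named after its value was seen, was brighter, with group means of 7.68 and 7.92. It did not pass (0.24 ± 0.12, adjusted p = 0.337). Ptges3, the HSP90 co-chaperone p23, was at 0.51 ± 0.13 (adjusted p = 0.133). The coactivator gene Ncoa3 was at -0.33 ± 0.10 (adjusted p = 0.179). The Hsp90aa1 call was lost when any 1 array was left out (adjusted p from 0.0701 to 0.165).

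The list of 18 further AHR target genes had 0 called, 7 at an unadjusted p under 0.05 (20.1% of all named genes) and a median of 0.29, with 11 higher and 7 lower means. Slc7a5, an amino acid transporter gene that AHR can induce, had the smallest p (0.86 ± 0.17, adjusted p = 0.0913). Nqo1, the quinone reductase of the classical battery and named after its value was seen, read 1.31, 1.47 and 2.46 without DOX and 2.77, 2.36 and 2.89 with DOX. Its groups overlap through no DOX replicate 3, the control in which Cyp1a1 was detected (0.93 ± 0.32 SE, adjusted p = 0.203).

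Among 31 further P450 genes of families 1 to 4, 0 were called and 12 had an unadjusted p under 0.05 (20.1% of all named genes), with 11 higher and 20 lower means and a median of -0.13. Higher values of Cyp1a1, Cyp1b1 and Cyp2e1 thus stood beside a list whose median was below 0. Cyp2s1, an epithelial P450 also listed as an AHR target, read 5.51, 5.83 and 5.91 without DOX and 4.11, 4.61 and 5.24 with DOX, opposite in sign to Cyp1a1 (-1.10 ± 0.29 SE, adjusted p = 0.135). Cyp2c38 was at 1.19 ± 0.30 (adjusted p = 0.127), Cyp4f13 at -0.63 ± 0.16 (adjusted p = 0.133) and Cyp2c66 at -0.64 ± 0.19 (adjusted p = 0.157). In the list of electron transfer partners and haem synthesis, which supply P450 enzymes, 0 of 12 genes were called, 2 had an unadjusted p under 0.05 and the median was 0.05. Ppox, an enzyme of haem synthesis, had the smallest p there (-0.44 ± 0.17, adjusted p = 0.235).

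Genes that make or degrade tryptophan-derived ligands were mostly near 0. Of 8 tested, 1 rose and 7 did not pass, with a median of 0.06, and 1 had an unadjusted p under 0.05. The gene that rose was Tph1, whose enzyme hydroxylates tryptophan on the route to serotonin (2.17 ± 0.29, adjusted p = 0.0479). It was detected in 2 of 3 controls, had a difference of 0.66 with normexp, and did not pass when any 1 array was left out or with the percentile taken over probes detected on all arrays (adjusted p = 0.0537). Kyat3 was at 0.27 ± 0.13 (adjusted p = 0.324) and Kyat1, also a kynurenine aminotransferase gene, at -0.14 ± 0.17 (adjusted p = 0.707). The tryptophan dioxygenase genes Ido1, Ido2 and Tdo2, which open the kynurenine route, were not tested, since none had a probe detected on all arrays of a group.

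The remaining families were listed for comparison with single members. In the PARP family, to which Tiparp belongs, 0 of 14 further genes were called, 6 had an unadjusted p under 0.05 (20.1% of all named genes) and the median was -0.20. Parp10 had the smallest p (-0.69 ± 0.12, adjusted p = 0.0802). In the aldehyde dehydrogenases, 0 of 19 further genes were called, 3 had an unadjusted p under 0.05 and the median was 0.00. Aldh1a3, a retinaldehyde dehydrogenase, lay at -2.0 ± 0.35 (adjusted p = 0.0777) with all DOX values below the controls. In the other xenobiotic receptors, 0 of 9 were called, 2 had an unadjusted p under 0.05 and the median was 0.09, with Pparg at 0.31 ± 0.10 (adjusted p = 0.194). In the bHLH-PAS family, 0 of 6 further genes were called, 2 had an unadjusted p under 0.05 and the median was 0.00, with the clock factor Arntl at 0.68 ± 0.16 (adjusted p = 0.112).

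Clock genes include bHLH-PAS relatives of Ahr and Arnt. Of these, Arntl and Clock did not pass (limma, adjusted p = 0.112 and 0.959) and Npas2 was not tested. The clock gene list changed in both directions. Of 16 tested, 2 rose, 3 fell and 11 did not pass, with a median of -0.22. An unadjusted p under 0.05 was found for 11 of the 16, beside 20.1% of all named genes. The strongest by p were Nr1d1 (-2.89 ± 0.13, adjusted p = 0.0050), Dbp (-3.04 ± 0.20, adjusted p = 0.0111) and Nfil3 (1.87 ± 0.13, adjusted p = 0.0116), and the others that passed were Cry1, which rose and was detected in 1 of 3 controls, and Nr1d2, which fell. DBP, NFIL3 and the NR1D proteins are transcription factors of the daily clock's output and feedback arms. The hour at which tissue was taken is not given in the labels used here, and the part of these changes in the values of the battery was not tested.

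**Figure D4:**
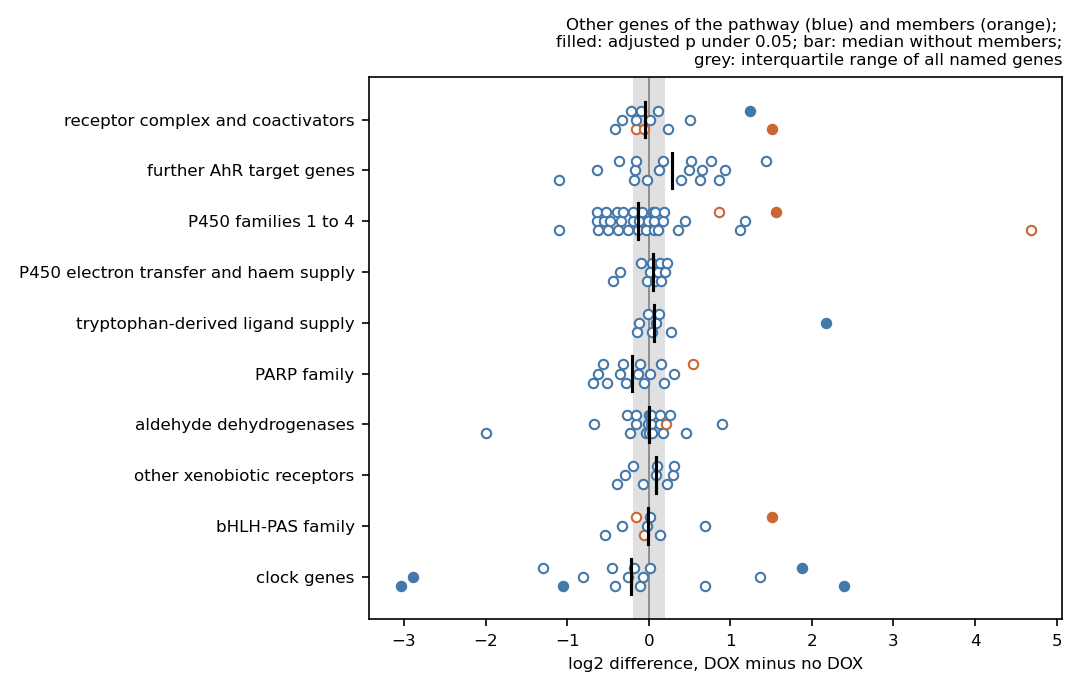
Log2 difference (DOX minus no DOX) of every tested gene in the 10 lists, with members of the battery in orange and other genes in blue; filled points passed an adjusted p of 0.05, black bars are list medians without members, and the grey band is the interquartile range of all named genes tested. Outside the clock genes, Hsp90aa1 and Tph1 were the blue points that passed, and the list of further target genes had a median of 0.29.

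The genes closest to a member over the 6 arrays were found by the root mean square difference between profiles, each centred on its own mean, among 14428 named genes. All of these profiles share the same 6 arrays and the same group difference, and the measure describes likeness only. The 3 closest to Cyp1a1 were Wfdc15a (1.03), Svs6 (1.11) and Amy2a5 (1.21), where the median gene was at 2.56. Amy2a5 encodes an amylase and may share signal with near-identical amylase genes. Its values of 3.41, 0.55 and 5.49 without DOX and 6.72, 8.32 and 6.47 with DOX had a different order from those of Cyp1a1, with the peak in DOX replicate 2. The differences of Wfdc15a (3.42 ± 0.60), Svs6 (3.50 ± 0.87) and Amy2a5 (4.02 ± 1.21) did not pass (adjusted p = 0.0777, 0.127 and 0.165). Wfdc15a and Svs6 were, like Cyp1a1, detected in 1 of 3 controls, so their differences and their closeness rest in part on undetected signals.

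For Cyp1b1 the closest were Rad51ap1 (0.17), Rrm2 (0.17) and Mcm6 (0.21), which act in recombination, nucleotide supply and DNA replication, where the median gene was at 0.82. For Ahrr they were Chaf1b (0.15), Dna2 (0.17) and the heat shock gene Hsph1 (0.18), where the median gene was at 0.80. All of these but Dna2 (1.46 ± 0.20, adjusted p = 0.0522) rose in the same fit, by 1.49 ± 0.16 for Rad51ap1, 1.58 ± 0.13 for Rrm2, 1.45 ± 0.13 for Mcm6, 1.39 ± 0.12 for Chaf1b and 1.25 ± 0.13 for Hsph1 (adjusted p = 0.0241, 0.0152, 0.0185, 0.0161 and 0.0241). These genes were chosen for their likeness to Cyp1b1 and Ahrr, both called, so their differences carry no test of their own. With 1 array left out, Rad51ap1 and Hsph1 did not pass in any of the 6 fits, and Rrm2, Mcm6 and Chaf1b passed only without DOX replicate 2.

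**Figure D5:**
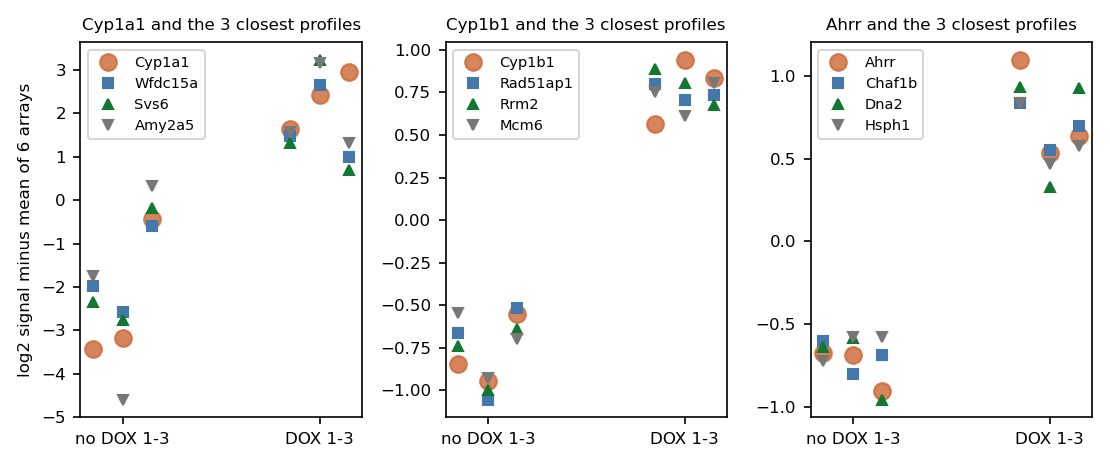
Log2 signal minus the mean of the 6 arrays for Cyp1a1, Cyp1b1 and Ahrr (orange circles) and the 3 named genes closest to each, with arrays in the order no DOX replicates 1 to 3 and DOX replicates 1 to 3. The genes near Cyp1a1 peaked in DOX replicate 2 and Cyp1a1 in DOX replicate 3, and the panels have different vertical scales.

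Markers of other cell types in the tongue were set beside these values. Of 12 salivary and lingual gland markers, 11 had a probe, 8 were detected on all arrays and Prol1 on none. Their summed signal, in multiples of the 75th percentile, was 379 to 836 without DOX and 801 to 1351 with DOX. It was highest in DOX replicate 2, as for Cyp2e1 and Cyp1b1. That array was not high for gland markers alone, since the skeletal muscle, adipocyte, fibroblast and macrophage sums also peaked there. The skeletal muscle sum was 2500 to 3348 without DOX and 2621 to 3371 with DOX. Among the 9 gland markers tested, 0 passed, 7 had an unadjusted p under 0.05 (20.1% of all named genes) and the median was 1.82. They went both ways. The 5 with higher means were Bpifa2, Car6, Amy1, Lpo and Bhlha15, and the 4 with lower means were Klk1, Aqp5, Dcpp1 and Dcpp2. The part of gland content in the values of Cyp1a1, Cyp1b1 and Cyp2e1 was not tested.

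Of 8 hepatocyte markers, relevant because Cyp1a2 and Cyp2e1 are abundant in liver, Alb, Apoa1 and Fga were not detected on any array and 3 were detected on all. The sum of this list was 1.31 to 1.45 without DOX and 1.67 to 2.44 with DOX, so its groups were apart. Of 4 tested, 0 passed, and the 2 at an unadjusted p under 0.05 went opposite ways. Serpina1a was higher (0.95 ± 0.21 SE), whereas Cyp2c29 was lower (-0.62 ± 0.20) and not detected on any DOX array. The others tested, Apoc3 and Fgb, were at 0.06 and 0.05. Of 8 adipocyte markers, 7 were detected on all arrays and Lep on none, and the sum was 48.9 to 62.4 without DOX and 47.5 to 77.1 with DOX, highest in DOX replicate 2. Of the 7 tested, 1 fell (Adrb3, named after its value was seen), 5 had higher means, and the median was 0.04. The fibroblast sum was 143 to 170 and 121 to 188, and the endothelial sum 25.7 to 29.7 and 23.7 to 27.8, so that neither sum set apart the groups, and all 6 and 7 of their markers were detected on all arrays. The keratinocyte sum was 1461 to 2046 without DOX and 1673 to 1958 with DOX, also overlapping, with no DOX replicate 3 highest. The macrophage sum (14.3 to 15 and 14.5 to 18.8, Cd163 not detected) and the T cell sum (6.94 to 7.95 and 7.36 to 8.5) overlapped too. These sums follow the brightest probes. Over single markers, 5 of 6 fibroblast markers had lower means (median -0.24, 0 passed, 2 at an unadjusted p under 0.05). The same held for 5 of 6 T cell markers (median -0.49). The 2 T cell markers at an unadjusted p under 0.05 went opposite ways, with Cd8a lower and Cd4 higher (0.31 ± 0.13 SE). Among T cell markers 1 of 6 tested fell, Cd8a, which was not detected on any DOX array. Cd4 and Cd8a were named after their values were seen. The part of these cell types in the members' values was not tested.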

How the data were processed

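Per the labels, Cy3-labelled cRNA was hybridised to 1-colour Agilent arrays. The authors' scanner output gives each spot's intensity on a linear scale after background subtraction in Feature Extraction 11.5.1.1, per the submitters' processing notes. The deposited value table equals that intensity times 1 factor per array (3.70 to 3.99), so its scale is linear and uncentred, and how the factor was set is unknown here. Column medians there were 102.5, 94.2 and 92.7 without DOX and 90.01, 97.5 and 93.7 with DOX. The authors' well-above-background flag (coded 0 or 1) was used as deposited. Groups came from the treatment label. Outlier spots (146 to 195 per array) were left out, log2 signals averaged per probe, and the array's 75th percentile over probes subtracted; it was 245.6 to 263.8 in signal units.

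Accessions were named through a RefSeq table of GRCm38.p6: 28331 probes matched 1 symbol and 27350 none. Probes detected on all 3 arrays of a group were tested (30935) with limma 3.58.1 in R 4.3.3 (two-sided, Benjamini-Hochberg over all probes, threshold 0.05), checked on simulated data; the brightest probe stood for a gene. The lists named are the 9 members, 10 pathway lists and 9 marker lists. Beside the members, up to 3 genes per list with the smallest p were named (4 for P450 genes, 1 where none passed) and the 3 closest profiles. Hsp90ab1, Nqo1, Nfe2l2, Ptgs2, Lpcat2, Cyp2b19, Adrb3, Cd4 and Cd8a were named after their values were seen. Cry1 and Nr1d2 were named as the other clock genes that passed, and every tested gland and hepatocyte marker was named. The members and lists were chosen with earlier results of these data known. The labels describe separate mice. The number of arrays limits precision.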

Additional observations from a re-analysis of the deposited data

How the results depend on the processing

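Normexp used the median signal, because the mean signal planned is not among the columns used here. The count of named genes called, 80 as reported, was 203 with normexp, 157 with trend and robust variance, 344 with array weights, 505 at a threshold of 0.10 and 1 with no filter on dim probes. It was 2 to 33 with 1 array left out. The members called, 2 as reported beside 80 named genes, were 3 with normexp (beside 203), array weights (344) or a threshold of 0.10 (505). Members called were also 3 with a raised floor and 0 with no filter (5 at an unadjusted p under 0.05). The count of named genes at the raised floor and the unadjusted share with no filter are not given here. With 1 array left out, 0 to 1 members were called. The further list genes called, 7 as reported, were 1 with no filter, 12 at a threshold of 0.10 and 1 to 3 with 1 array left out. The cause of these shifts was not tested.

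With the replicate number of the titles as a block, 0 named genes (2934 at an unadjusted p under 0.05), 0 members (5) and 0 list genes (43) were called by limma. The numbers were not treated as pairs. Deviations of same-numbered arrays correlated at -0.113, -0.0335 and -0.00294 over 15205 genes, and no array correlated best with its own number. These correlations cannot by themselves show how the mice were matched. Of 246 comparisons of 13 member probes with an alternative, 222 kept direction and side of the threshold. A change of sign occurred in 3: Arnt with the probe of smallest p (0.42), Ahr probe A_65_P06603 without DOX replicate 1 (-0.12 to 0.0082 with 1 array left out) and Aldh3a1 probe A_55_P2065562 without DOX replicate 3 (-0.045 to 0.32). Among 34 other named genes no alternative run changed a sign. Scaling moved the median of all named genes by under 0.1 (log2). Signals not well above background limit Cyp1a1, Cry1, Wfdc15a and Svs6 (detected in 1 of 3 controls), Tph1 and Ptgs2 (2 of 3), and Cyp1a2 (on no array).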

Other observations

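A few further genes of the AHR target and P450 lists, named after their values were seen, differed in direction. Ptgs2, which encodes the inducible prostaglandin synthase, was detected in 2 of 3 controls and read -4.68, -4.33 and -3.98 without DOX and -2.47, -3.66 and -2.56 with DOX (1.44 ± 0.35 SE, adjusted p = 0.122, limma). As for Tiparp, DOX replicate 2 was the lowest of its group. Cyp2b19, a P450 of keratinocytes, was at 1.12 ± 0.38 (adjusted p = 0.196) and had its highest value, -2.01, in DOX replicate 3, the array in which Cyp1a1 peaked. Nfe2l2, the NRF2 gene that lies downstream of AHR, was at 0.50 ± 0.15 (adjusted p = 0.167) with DOX values above all controls. Lpcat2, a lysophospholipid acyltransferase gene, was lower on all 3 DOX arrays (-0.64 ± 0.13, adjusted p = 0.0914).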
